A study of Mus musculus with 2 samples.

Results

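The RAB genes encode the largest branch of the RAS-like small GTPases, the proteins that give each membrane compartment of the cell its identity. They were chosen by symbol, as every gene whose name is Rab followed by a number and at most a letter and a further digit. This found 42 of the 10982 genes in the table. The cells, from neonatal mouse heart and labelled as cardiomyocytes, were a negative control or had the piRNA FERPIR knocked down by an antagomir, a chemically modified antisense oligonucleotide. How the antagomir was given, and what the control received, are not stated in the labels. There were 2 libraries, 1 per group, so no difference has a replicate check, and nothing in this text is a test of the conditions. Both libraries carry the treatment label PBS, and strain, exact age and antagomir dose are not stated in the labels. FERPIR itself is not analysed here.

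A RAB protein is switched on when a guanine nucleotide exchange factor (GEF) loads it with GTP, and switched off when a GTPase-activating protein (GAP) makes it hydrolyse that GTP. In its active form it sits on one kind of membrane through lipid tails at its C terminus and recruits effectors, the tethers, motors and lipid kinases that move and fuse vesicles. A GDP dissociation inhibitor (GDI) then lifts the inactive protein off the membrane. In heart muscle cells RAB proteins carry ion channels, adrenergic receptors and the insulin-responsive glucose transporter to and from the surface, and they deliver worn-out cargo and organelles to lysosomes.

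Levels are in FPKM, the authors' fragment counts per length of transcript and per library size, so they can be compared between genes. They are levels of RNA, and no protein level was used here. In each pair of FPKM values the control library comes first and the antagomir library second, and higher or lower means in the antagomir library. The difference between the libraries is given as the log2 ratio of (antagomir FPKM + 1) over (control FPKM + 1), which makes the differences of low genes look smaller; folds use it too. Of the 42 RAB genes, 40 reached 1 FPKM in the higher library, and Rab27b (0.59 and 0.99 FPKM) and Rab36 (0.69 and 0.39 FPKM) did not. In both libraries 29 members had at least 5 FPKM. Of the 40 genes, 19 lay within 1.2-fold and 32 within 1.5-fold. Most genes of the whole table lay within 1.5-fold too, with 13.4% of 10201 genes lower and 10.8% higher by that much. The share of all genes within 1.2-fold was not computed.

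Of these 40 genes, 4 were lower by 1.5-fold or more, Rab7, Rab5a, Rab2b and Rab39b, and 4 were higher by that much, Rab1b, Rab13, Rab3d and Rab7b. Each of these counts is 10% of the 40. Among the 10201 genes of the whole table that reached the same minimum, 13.4% were lower and 10.8% higher by 1.5-fold, so both RAB shares were near or below the background. At 2-fold there were 2 lower members, Rab2b and Rab39b, against 3.79% of all genes, and 1 higher member, Rab3d, against 2.88%. With both libraries rescaled to TPM the counts at 1.5-fold were 6 lower and 3 higher, beside 19.97% and 10.5% of all genes. Log2 ratios spread wider among high genes, with an SD of 0.71 over the 1270 genes reaching 50 FPKM and 0.45 from 1 to 5 FPKM. Of those 1270 genes 16.1% were lower and 21.7% higher by 1.5-fold, with a median of 0.13. Of the 8 RAB genes reaching 50 FPKM, 2 were lower and 1 higher, with a median of -0.39. The median log2 ratio of the RAB genes was -0.14, that of all genes -0.05. Under each of the 9 other settings tried the RAB median was below 0, from -0.23 to -0.07. The all-gene median moved too, from -0.13 as TPM to 0 where centring sets it there. Rab2b, Rab39b and Rab40b passed 1 FPKM in 1 library only.

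**Figure D1:**
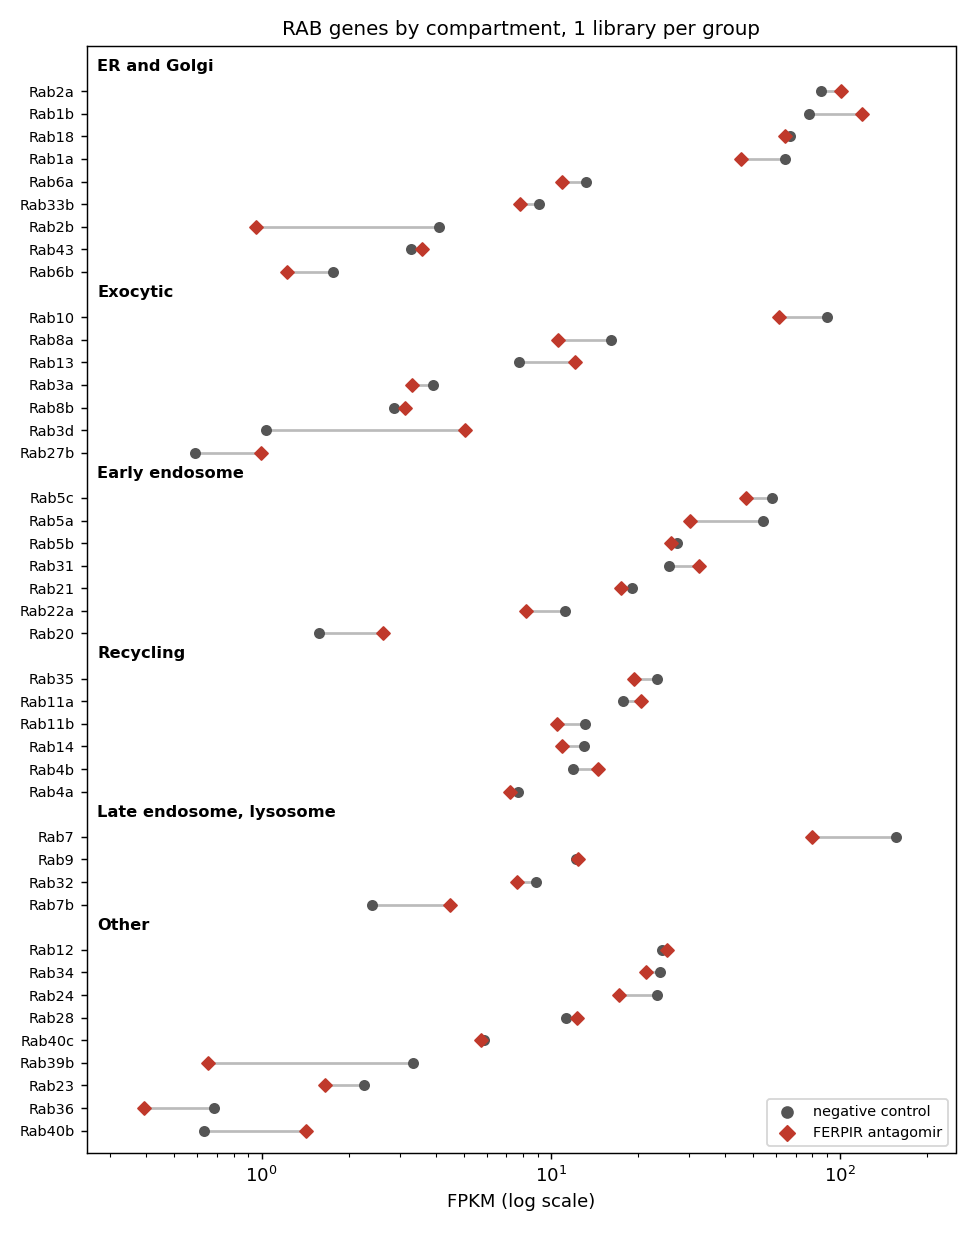
FPKM (log axis) of all 42 RAB genes in the negative control library (grey circles) and the FERPIR antagomir library (red diamonds), grouped by compartment and joined by a line for each gene. Rab7 has the highest control value, 156 FPKM, and Rab1b the highest antagomir value, 119 FPKM; there is 1 library per group and no error bar.

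The 42 genes summed to 1006 and 888 FPKM, a share of all FPKM of 0.341% and 0.284%. The antagomir minus control difference was -118.6 FPKM for the family. The largest single differences downward were -76.0 FPKM for Rab7, -28.6 FPKM for Rab10, -23.9 FPKM for Rab5a and -18.8 FPKM for Rab1a. The largest upward were 40.9 FPKM for Rab1b and 14.8 FPKM for Rab2a, so the family sum is what remained after differences in both directions. The order of levels over the 42 genes was much the same in both libraries, with Spearman's rho of 0.96 across genes, a description only, since genes of 1 library share its depth and composition. Rab7, Rab10, Rab2a, Rab1b and Rab18 were the 5 highest in the control library, and Rab1b, Rab2a, Rab7, Rab18 and Rab10 in the antagomir library. The spread between libraries of 1 condition was not measured, so it is not known which neighbours in this order differ beyond it.

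**Figure D2:**
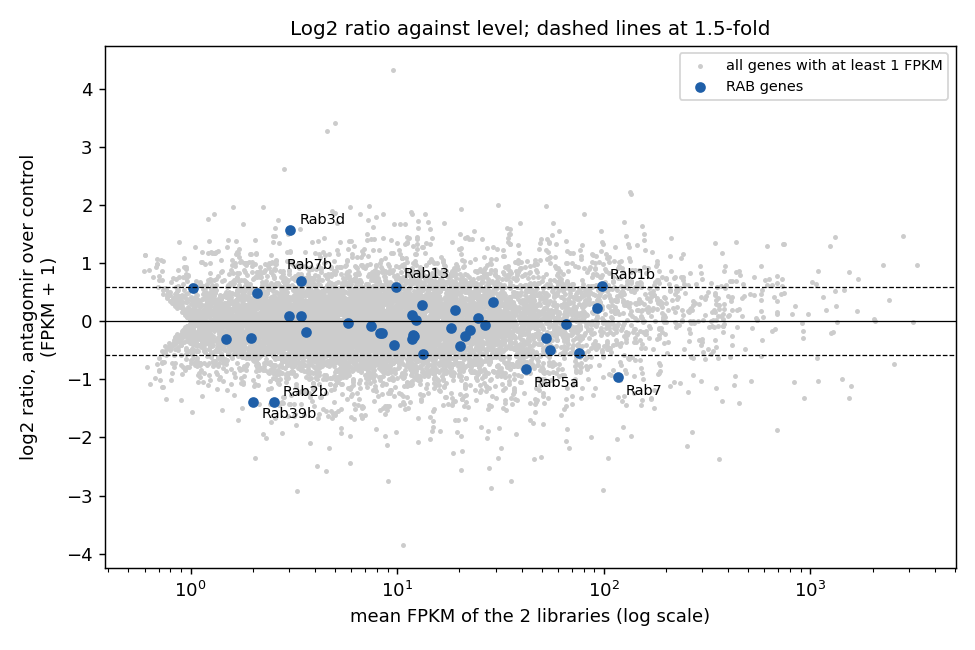
Log2 ratio (antagomir over control, FPKM + 1) against the mean FPKM of the 2 libraries (log axis) for all 10201 genes with at least 1 FPKM (grey) and the 40 RAB genes among them (blue), with dashed lines at 1.5-fold. The 8 named RAB genes lie past the lines and the other 32 lie between them.

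The RAB genes of late endosomes and lysosomes include Rab7, the gene with the largest difference of the family in FPKM. Rab7, the GTPase that matures endosomes and fuses them with lysosomes and autophagosomes, had 156 and 79.8 FPKM, 1.94-fold lower. This put it at percentile 4.31 of the log2 ratios of all genes, taken over all levels. Among genes reaching 50 FPKM, as Rab7 does, 16.1% were lower by 1.5-fold. Rab7b, a distinct protein of similar name that works in transport from endosomes back to the Golgi, stood at a much lower level and on the other side, with 2.40 and 4.48 FPKM, 1.61-fold higher. Rab9, which returns mannose 6-phosphate receptors from late endosomes to the Golgi, had 12.2 and 12.4 FPKM. Rab32, a GTPase of lysosome-related organelles and mitochondria, had 8.87 and 7.63 FPKM, a log2 ratio of -0.19. The class summed to 179 and 104 FPKM, but to 23.4 and 24.5 FPKM without Rab7, so its lower sum was that of 1 gene. Its median log2 ratio over 4 genes was -0.08, and 0.026 when Rab7, whose exons overlap an antisense transcript, was left out with the other overlapping genes.

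Among RAB genes of the early endosome, those of the RAB5 paralogs, which drive fusion of incoming endocytic vesicles, were not alike. Rab5a had 54.1 and 30.2 FPKM, 1.77-fold lower. Rab5c had 57.9 and 47.3 FPKM, a log2 ratio of -0.29, and Rab5b had 27.2 and 25.9 FPKM, a log2 ratio of -0.07. Rab5a was thus close to Rab5c in the control library and nearer to Rab5b in the antagomir library. Rab31, which works between the Golgi and endosomes, had 25.6 and 32.5 FPKM, a log2 ratio of 0.34, whereas its close relative Rab22a had 11.2 and 8.19 FPKM, a log2 ratio of -0.40. Rab21, a GTPase of integrin uptake, had 19.1 and 17.5 FPKM, and Rab20 had 1.58 and 2.63 FPKM. The class median over 7 genes was -0.12, and -0.00092 once the dependence on length and GC content of the transcripts (the length and GC trend) was removed.

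Rab7 and Rab5a mark consecutive steps of one route, and both were lower, so the bases before their start sites are shown, with those of Rab39b, also lower, and of Rab3d, the member with the highest log2 ratio. The sequences are the strand of each gene, from RefSeq's promoter table on build GRCm38.p6, with exons of protein-coding genes left out. Capitals mark CACGTG (the E-box bound by TFEB and related factors, among others), TGACGTCA (the cAMP response element that CREB and ATF proteins bind), GGGCGG (the GC box), CCAAT and TATAAA, on either strand. Rab7 lies on chromosome 6 on the minus strand, and its 150 bases are chr6:88045271-88045420. Rab5a lies on chromosome 17 on the plus strand (chr17:53479084-53479233), Rab39b on chromosome X on the minus strand (chrX:75578232-75578381) and Rab3d on chromosome 9 on the minus strand (chr9:21918193-21918333).
Rab7: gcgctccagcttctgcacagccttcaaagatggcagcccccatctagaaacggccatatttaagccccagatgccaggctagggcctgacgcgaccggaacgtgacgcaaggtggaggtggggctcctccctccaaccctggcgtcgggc
Rab5a: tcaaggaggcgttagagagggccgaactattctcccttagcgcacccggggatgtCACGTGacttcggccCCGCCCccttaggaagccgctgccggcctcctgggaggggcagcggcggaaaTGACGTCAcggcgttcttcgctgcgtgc
Rab39b: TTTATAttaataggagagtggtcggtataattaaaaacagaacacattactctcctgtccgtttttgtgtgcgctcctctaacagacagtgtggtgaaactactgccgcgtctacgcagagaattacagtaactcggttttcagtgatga
Rab3d: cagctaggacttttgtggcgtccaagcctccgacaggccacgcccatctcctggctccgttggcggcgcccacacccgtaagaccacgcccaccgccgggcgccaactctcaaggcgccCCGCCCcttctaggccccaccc

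The motifs were searched on both strands of the 250 bases before each start, in 44 promoters of the 36 RAB genes in that table. CACGTG was found in 4 of the 44, those of Rab5a, Rab20, Rab21 and Rab23, and in 8.46% of 10870 promoters of genes in the expression table. TGACGTCA was found in 1, that of Rab5a, and in 2.73% of those promoters. Rab5a was thus the single RAB promoter with both, and the Rab7 window shown, from the first of its 2 entries, holds none of the motifs in capitals. GGGCGG was found in 32 of the 44 RAB promoters (72.7%) and in 59.4% of promoters of genes in the table, CCAAT in 20 (45.5%) and in 36.4%, and TATAAA in 2, those of Rab39b and Rab7, and in 6.03%. The TATAAA of Rab7 lies farther from the start than the bases shown. TGACGTGG, a site of the endoplasmic reticulum stress factors ATF6 and XBP1, was found in none of the 44 and in 0.699% of promoters of genes in the table, and CCAAT followed after 9 bases by CCACG, the endoplasmic reticulum stress element, in none and in 0.110%. A match here is a description of letters, not of binding, and its absence concerns this window only.

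The RAB genes of the endoplasmic reticulum and Golgi class included 4 of the 8 members with the highest FPKM, and in its Rab1 and Rab2 pairs 1 paralog was higher and the other lower. Rab1b and Rab1a, which control transport from the endoplasmic reticulum to the Golgi, had 77.7 and 64.2 FPKM in the control library. In the antagomir library Rab1b had 119 FPKM, 1.52-fold higher, and Rab1a 45.4 FPKM, 1.41-fold lower. Rab2a, which acts on membranes between the endoplasmic reticulum and Golgi, had 85.5 and 100.3 FPKM, a log2 ratio of 0.23, and Rab2b 4.11 and 0.96 FPKM, 2.61-fold lower. Rab18, a GTPase of the endoplasmic reticulum and lipid droplets, had 66.8 and 64.6 FPKM. Rab6a, which runs transport within the Golgi and back to the endoplasmic reticulum, had 13.2 and 10.9 FPKM, and Rab33b, a Golgi GTPase that binds the autophagy protein ATG16L1, had 9.10 and 7.79 FPKM. Rab43 (3.30 and 3.58 FPKM) and Rab6b (1.76 and 1.22 FPKM), also Golgi GTPases, were low in both libraries. The class median over 9 genes was -0.20, yet its summed level was 326 and 353 FPKM, with the 2 most abundant members, Rab2a and Rab1b, both higher.

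The genes of the RAB proteins that bring vesicles from the Golgi to the cell surface differed in direction. Rab10 and Rab8a, the relatives that move glucose transporter vesicles and cargo to the cell surface and the primary cilium, were lower just short of the 1.5-fold limit. Rab10 had 90.2 and 61.5 FPKM, 1.46-fold lower, and Rab8a had 16.1 and 10.6 FPKM, 1.48-fold lower. As TPM both passed the limit, at log2 ratios of -0.63 and -0.67, where 19.97% of all genes were lower by that much. With the length and GC trend removed both were further inside the limit, at -0.45 and -0.43. Rab13, which delivers proteins to tight junctions and protrusions, had 7.73 and 12.1 FPKM, 1.502-fold higher, at the limit itself. Rab3d, a GTPase of regulated secretory granules, had 1.03 and 5.06 FPKM, 2.98-fold higher, at percentile 99.6 of all genes. Its paralog Rab3a, best known from synaptic vesicles, had 3.92 and 3.32 FPKM. Rab8b had 2.86 and 3.14 FPKM. The median over the 6 genes with at least 1 FPKM was -0.04 and the mean 0.16, opposite in sign. For all secretory RAB genes, the 9 of the endoplasmic reticulum and Golgi with these 6, the median was -0.19, but 0.16 with genes that overlap another gene left out.

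No RAB gene of recycling endosomes, the route that returns internalised receptors to the surface, reached 1.5-fold in either direction. Rab11a, the main GTPase of the perinuclear recycling compartment, had 17.7 and 20.5 FPKM, and Rab11b had 13.1 and 10.5 FPKM, log2 ratios of 0.20 and -0.30. For fast recycling, Rab4a had 7.67 and 7.25 FPKM and Rab4b 11.9 and 14.6 FPKM. Rab35, which acts at the plasma membrane, had 23.3 and 19.4 FPKM, and Rab14, between the Golgi and endosomes, 13.0 and 10.9 FPKM. The 6 genes summed to 86.7 and 83.1 FPKM, with a class median of -0.16 and log2 ratios from -0.30 to 0.27, the narrowest range of the compartment classes.

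Of the 8 counted members placed in none of these classes, 4 (Rab12, Rab34, Rab28 and Rab40c) lay within 1.2-fold. Rab12, which sends transferrin receptors to degradation, had 24.2 and 25.2 FPKM, and Rab34, a GTPase of the Golgi, lysosome positioning and cilia, 23.9 and 21.3 FPKM. Rab24, linked to autophagy, had 23.3 and 17.1 FPKM, a log2 ratio of -0.42. Rab28, a GTPase of cilia and photoreceptors, had 11.3 and 12.3 FPKM, and Rab40c, a substrate adaptor of ubiquitin ligases, 5.87 and 5.72 FPKM. Rab39b, whose mutation in humans causes X-linked intellectual disability with parkinsonism, had 3.34 and 0.65 FPKM, 2.62-fold lower. Rab23, an inhibitor of Hedgehog signalling, had 2.25 and 1.66 FPKM, and Rab40b had 0.63 and 1.43 FPKM, 1.49-fold higher. The class median was -0.09 over 8 genes, and 0.057 without genes that overlap another gene.

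Paralogs that share a number did not always share a direction. There were 10 such groups with 21 members, and in 8 of them the log2 ratios lay on both sides of 0. Of all genes 5506 of 10201 were below 0, so opposite signs are common among any genes set side by side. Some of these ratios lay close to 0, as for Rab4a at -0.07 and Rab8b at 0.10. Only in the Rab7 group did members pass 1.5-fold on both sides. This group rests on the symbol, since Rab7b is the distinct protein described above, and Rab7b had 1.52% and 5.32% of its summed FPKM. In the Rab1 group the share of Rab1b in the summed FPKM was 54.8% and 72.3%, again with the control first, while the sum itself was 142 and 164 FPKM. In the Rab3 group Rab3d had 20.8% and 60.4% of the sum, so it passed Rab3a. In the Rab5 group Rab5a had 38.9% and 29.2%, and the summed level of the 3 genes was 139 and 103 FPKM. In the Rab11 group Rab11a had 57.4% and 66.2%, of sums of 30.8 and 31.0 FPKM. In the Rab2 group Rab2a had 95.4% and 99.1%, so Rab2b carried little of the sum in either library. The groups on 1 side of 0 were Rab5 and Rab6. In the Rab4 and Rab40 groups, Rab4b and Rab40c turned sign under some of the settings.

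**Figure D3:**
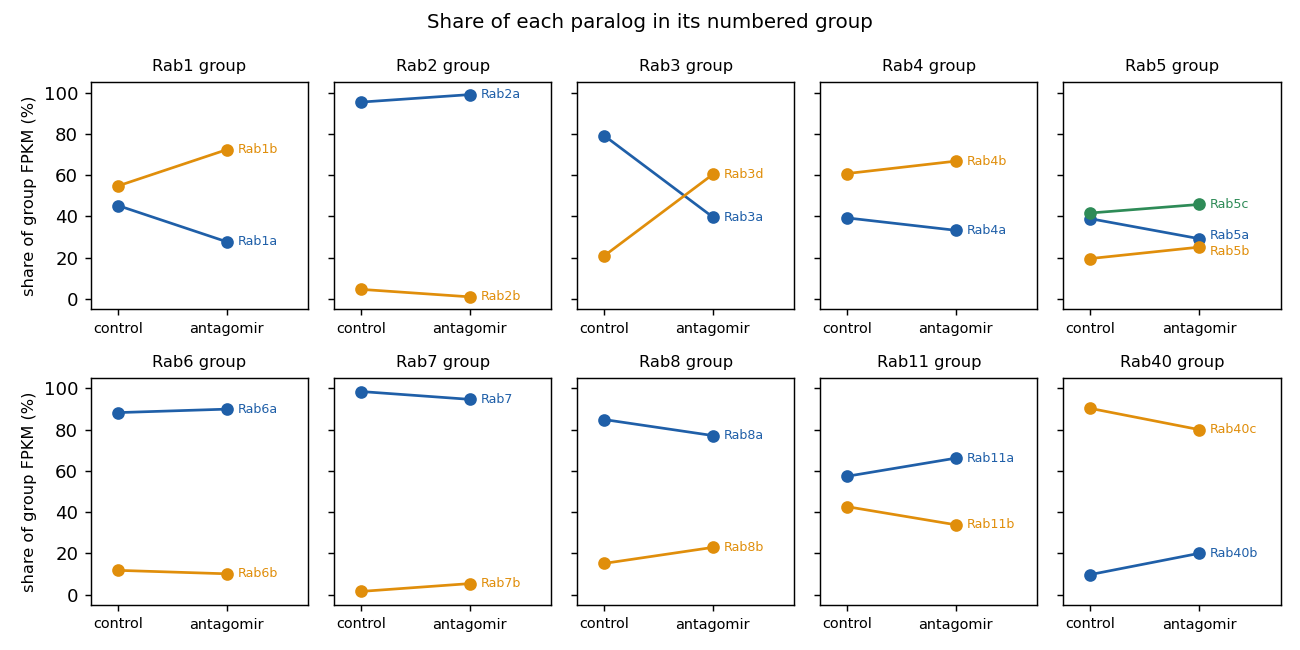
Share of each paralog in the summed FPKM of its numbered group (percent) in the control and antagomir libraries, for the 10 groups with more than 1 member. Rab1b goes from 54.8% to 72.3%, Rab3d from 20.8% to 60.4% and Rab5a from 38.9% to 29.2%; there is 1 library per group.

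The paralogs share little sequence at the length of a short read. Of stretches of 50 bases in the longest annotated transcript of each member, 39 of the 42 genes shared none with a transcript of another RAB gene, and the highest share was 0.347%, for Rab11b. Other genes shared more, counting either strand. The highest shares were 93.0% of the Rab4b stretches with Gm21983 and 90.3% of those of Rab43 with Gm45140. Next came 68.3% of those of Rab2b with Gm43766 and 48.9% of those of Rab24 with Prelid1. Of the Rab7 stretches 14.5% were also in the pseudogene Rab7-ps1, and for Rab5b 13.0% were in Gm13991. Exons of 17 members overlapped exons of another gene on either strand. These included all 4 of the lower genes, Rab7, Rab5a, Rab2b and Rab39b, and none of the 4 higher ones. Such overlap was common in the whole table, where 6358 of the 10201 genes reaching 1 FPKM had none, beside 23 of the 40 RAB genes reaching it. With overlapping genes left out, 13.8% of all genes were lower by 1.5-fold, beside 13.4% with them kept. The overlap took in 7.82% of the exon bases of Rab7, 4.19% of Rab5a, 18.6% of Rab39b and 64.0% of Rab2b, and its part in the ratios was not tested. Whether the counting used strand is not stated, so the values of overlapping genes are uncertain. Of the exon bases of Rab2b, 59.3% overlap Gm43766, whose level is not analysed here, and 4.68% overlap Tox4, both on the opposite strand. Tox4 had 7.73 and 6.46 FPKM. The remaining 13 overlapping members lay within 1.5-fold. Among them were Rab4b and Rab43, whose exons are 65.0% and 75.4% shared with a gene on the same strand. Another was Rab24, with 62.4% of its exon bases overlapping Prelid1 on the opposite strand. Prelid1 had 178 and 221 FPKM, far above Rab24.

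The machinery that turns RAB proteins on and off was described from lists of 12 genes of prenylation and GDI, 43 of GEF complexes, 31 of GAPs and 49 of effectors, counting genes with at least 1 FPKM. All 4 medians were below that of all genes, -0.05, at -0.24, -0.24, -0.10 and -0.15. At least 1.5-fold lower were 2 of 12, 7 of 43, 3 of 31 and 8 of 49 genes, and at least 1.5-fold higher 1, 3, 1 and 1, beside the 13.4% and 10.8% of all genes. By share, 16.7%, 16.3%, 9.68% and 16.3% of the lists were lower, and 8.33%, 6.98%, 3.23% and 2.04% higher. Longer transcripts had lower log2 ratios, with Spearman's rho of -0.30 over the 10192 genes with a length and the same rounded value over the 40 RAB genes, a description across genes of the same 2 libraries. With the length and GC trend removed, the 4 medians were -0.27, -0.17, -0.044 and -0.061, and that of all genes was -0.023.

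Among the genes that anchor and extract RAB proteins, Gdi2, which encodes a GDI, had 23.0 and 21.3 FPKM. Fdps, which makes the farnesyl diphosphate from which the RAB lipid tail is built, had 65.4 and 36.7 FPKM, 1.76-fold lower. Rabggtb, a subunit of the enzyme that attaches the tail, had 56.3 and 52.4 FPKM, and Fntb, a subunit of the related farnesyltransferase, 11.7 and 8.23 FPKM. Rabac1, which helps remove GDI at membranes, had 59.6 and 98.1 FPKM, 1.64-fold higher, but a log2 ratio of 0.27 with the length and GC trend removed. Exons of Fdps, Fntb and Gdi2 overlap those of other protein-coding genes, so their values carry the same uncertainty.

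Among the GEF genes, Rabgef1, which encodes the RAB5 activator Rabex-5, had 7.48 and 1.74 FPKM, 3.09-fold lower, the lowest log2 ratio of that list. Gapvd1, another activator of RAB5, had 8.09 and 4.13 FPKM, 1.77-fold lower. Subunits of TRAPP, the complex that activates RAB1 at the Golgi, were on both sides: Trappc8 had 5.01 and 2.41 FPKM, 1.76-fold lower, whereas Trappc1 had 45.1 and 76.8 FPKM, 1.69-fold higher, Trappc6a 14.6 and 23.0 FPKM, and Trappc2l 19.95 and 29.0 FPKM. With the length and GC trend removed, Trappc1 and Trappc6a came under 1.5-fold, at log2 ratios of 0.33 and 0.12. Among the GAP genes, Tbc1d20, a GAP for RAB1, had 32.9 and 11.2 FPKM, 2.78-fold lower. Tbc1d31 had 22.0 and 10.9 FPKM, 1.93-fold lower, and Usp6nl, a GAP for RAB5, 7.07 and 4.21 FPKM, 1.55-fold lower. At the other end Tbc1d10a, a GAP for RAB27 and RAB35, had 7.95 and 13.7 FPKM, 1.65-fold higher, Tbc1d10b 11.1 and 13.4 FPKM and Tbc1d13 8.49 and 10.2 FPKM. With the length and GC trend removed, Usp6nl and Tbc1d10a came under 1.5-fold, at log2 ratios of -0.43 and 0.51.

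Among the effectors, Eea1, the long tether that RAB5 places on early endosomes, had 25.9 and 10.5 FPKM, 2.34-fold lower. Uso1, a Golgi tether recruited by RAB1, had 31.0 and 16.5 FPKM, 1.83-fold lower. Gorasp2, a Golgi stacking protein, had 35.1 and 21.4 FPKM, 1.61-fold lower. Exons of Gorasp2 overlap those of other protein-coding genes, so its values are uncertain. Among effectors reaching 5 FPKM the upper end held Vps45, a fusion factor of early endosomes, with 4.83 and 7.40 FPKM, Rilpl2, with 3.37 and 5.25 FPKM, and Rufy1, an effector of RAB4 and RAB14, with 11.2 and 15.2 FPKM, all under 1.5-fold. The 1 effector past 1.5-fold higher, Micall2, named after its value was seen, had 1.04 and 2.65 FPKM.

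**Figure D4:**
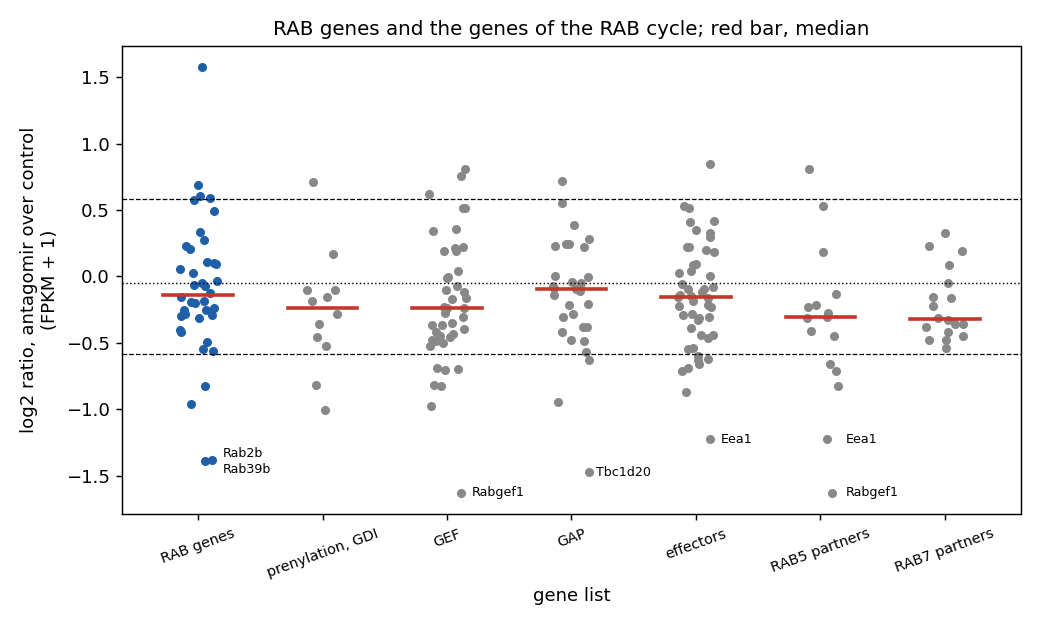
Log2 ratio (antagomir over control, FPKM + 1) of each gene with at least 1 FPKM, for the RAB genes (blue) and 6 lists of the RAB cycle (grey), with the list median as a red bar, the median of all genes as a dotted line and 1.5-fold as dashed lines. The RAB5 and RAB7 partner lists have medians of -0.31 and -0.32, and the genes with the lowest ratios are named; some genes stand in 2 lists.

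Because Rab7 and Rab5a had the lowest log2 ratios among members reaching 5 FPKM, the known partners of RAB5 and RAB7 were listed after those values had been seen. Of 16 RAB5 partner genes, 13 had log2 ratios below 0, 5 were at least 1.5-fold lower (Rabgef1, Eea1, Gapvd1, Appl2 and Vps8) and 1, Rin2, was at least 1.5-fold higher. These are 31.2% and 6.25% of the list, beside 13.4% and 10.8% of all genes, of which 5506 of 10201 were below 0. Rin2 and the 5 lower genes also stand in the GEF or effector list above, so their count here is no separate support. Appl2, an adaptor of signalling endosomes, had 4.35 and 2.26 FPKM, and Rin2, a further activator of RAB5, 1.91 and 4.10 FPKM. The list median was -0.31, and -0.16 with the length and GC trend removed, where Vps8 came under 1.5-fold at -0.52. Of 18 RAB7 partner genes, 14 were below 0 and none reached 1.5-fold in either direction, with a median of -0.32 and a range from -0.54 to 0.33. Among them Ccz1, a subunit of the RAB7 activator, had 16.04 and 11.3 FPKM, Tbc1d15, a RAB7 GAP, 34.2 and 24.3 FPKM, and the retromer subunits Vps35 and Vps26a 32.2 and 23.3 FPKM and 56.6 and 43.2 FPKM. Vps33a, a subunit of the tethering complexes that act with RAB7, had 8.60 and 8.27 FPKM, and Vps29, of the retromer, had a log2 ratio of 0.09. Vps16, a partner of Vps33a in those complexes, had 17.5 and 20.7 FPKM. Exons of Vps35, Vps29 and Vps16 overlap those of other protein-coding genes, so their values are uncertain.

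**Figure D5:**
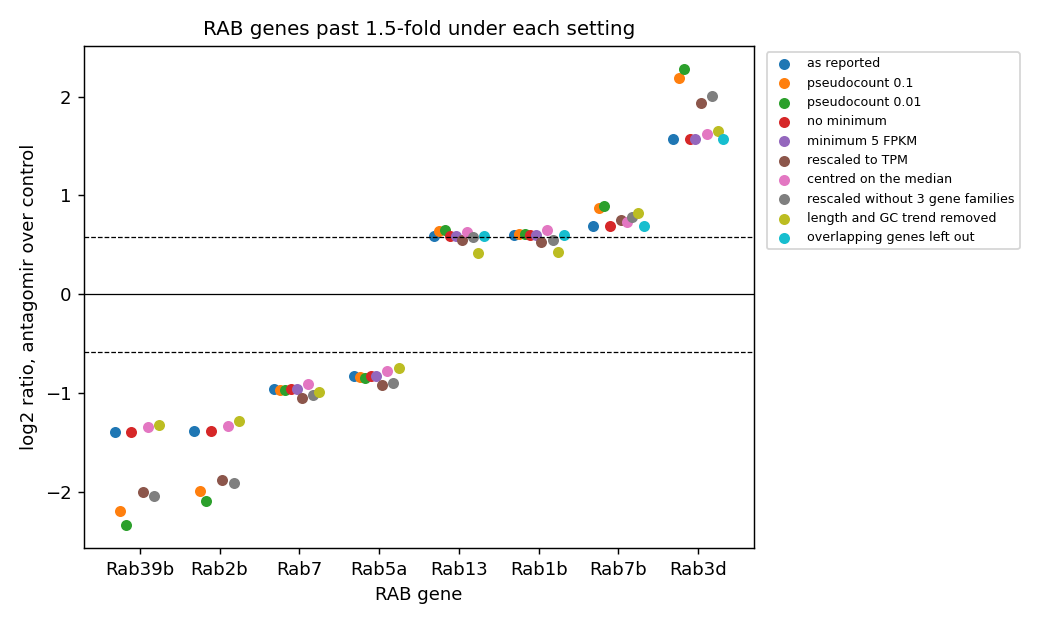
Log2 ratio of the 8 RAB genes past 1.5-fold under each setting in which they have a value, in which colours stand for settings and dashed lines mark 1.5-fold. No point crosses 0, though several of the settings cannot turn a sign. Rab13 and Rab1b are the genes with points on both sides of the upper line.

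The 8 genes differed in how far their log2 ratios ranged over the settings. Rab7 ranged from -1.05 to -0.91 and Rab5a from -0.92 to -0.75 over the settings that kept them. Rab1b ranged from 0.42 to 0.65 and Rab13 from 0.41 to 0.65, so both came under 1.5-fold (a log2 ratio of 0.58) under some settings. Rab3d ranged from 1.58 to 2.28, Rab7b from 0.69 to 0.90, Rab2b from -2.09 to -1.28 and Rab39b from -2.34 to -1.32. Rab3d, Rab2b and Rab39b had the widest ranges of the 8. Of the 40 members, 34 kept their sign in every setting that gave them a value (overlapping members and those under 5 FPKM lack 1 or more), and Rab4b, Rab9, Rab12, Rab18, Rab21 and Rab40c did not. Only rescaling, centring and trend removal can turn a sign.

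Markers of the labelled cell type were few in the table. Of 10 cardiomyocyte markers 1 had a value, Tnnt2, with 1.48 and 8.19 FPKM, and the other 9 are not analysed here. Of 10 fibroblast markers 6 summed to 548 and 341 FPKM, with Pdgfra alone the higher one. Of 6 smooth muscle markers 4 summed to 1331 and 891 FPKM, nearly all of it Acta2, with 1305 and 845 FPKM. Tagln (18.2 and 37.8 FPKM) and Cnn1 (1.79 and 2.91 FPKM) were higher, and Pdgfrb had 6.21 and 5.80 FPKM. Of 5 erythroid markers 2 summed to 14.4 and 20.8 FPKM, and 1 of 6 macrophage markers, Lyz2, had 3.28 and 4.44 FPKM. None of 6 endothelial markers had a value. The part of these differences in the RAB values was not tested, and in bulk samples fewer cells of a type and less RNA per cell cannot be told apart.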

How the data were processed

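RNA sequencing of 2 libraries, 1 per group, was used as 1 deposited table. The authors' values are FPKM, per the file headers, made with cutadapt, HISAT2 and StringTie 1.3.3 on GRCm38, per the submitters' processing notes; the annotation, the settings and any use of strand are not stated there. Per the labels' protocols, poly(A) RNA went into a stranded kit, followed by adaptor steps usual for small RNA, so the library type is not settled. Depth is unknown: low FPKM times transcript length showed no whole-read steps, so counting intervals were not computed. Every row had at least 0.501 FPKM in the higher library.

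FPKM of 10 symbols on more than 1 line were summed. Log2 ratios used a pseudocount of 1, and counts needed at least 1 FPKM in the higher library and 1.5-fold or 2-fold. There was no test. Transcript length, GC content and exons came from GENCODE release M21 on GRCm38, in which 37 of the 42 RAB loci were identical. The trend over log2 length and GC was a quadratic fit. The computation used Python 3.11.15 and pandas 2.3.3, and was tested on simulated data. Members, compartments and lists were chosen with earlier results of these data known. Named members reached 5 FPKM or were 1.5-fold apart; other members are given too, after their values were seen. Named regulators were the 3 at either end of each list reaching 5 FPKM and any 2-fold apart. Tox4, Prelid1 and those of the RAB5 and RAB7 lists outside this rule were chosen after their values were seen. The alternatives were other pseudocounts, another minimum or none, TPM, centring, rescaling without 3 gene families, trend removal and leaving out overlapping genes. No protein sequences were used here. The values of 1 gene that this rule names are not reported here.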

Additional observations from a re-analysis of the deposited data

How the results depend on the processing

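The limits are the same for every value: 1 library per group, unknown depth and no replicate spread, so a count is called changed here when it moved over 1.5 times and a median when it moved by at least 0.1. In the 9 alternatives, none of the 8 RAB genes past 1.5-fold turned its sign where it kept a value. Changing the pseudocount or the minimum, or leaving out overlapping genes, cannot turn a sign, so those settings are no check of it. The partner lists were added after the data had been seen. No paired analysis was possible because each group has 1 library.

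With the length and GC trend removed, 2 RAB genes were at least 1.5-fold higher, the early endosome median was -0.00092, prenylation and GDI genes at least 1.5-fold higher numbered 0, GEF genes 1, effectors at least 1.5-fold lower 5, and the RAB5 partner median was -0.16. With a minimum of 5 FPKM, 2 RAB genes were at least 1.5-fold lower and 0 at least 2-fold lower, the late endosome median was -0.19, the GAP median -0.38, and the lower counts were 4 for GEF genes, 4 for effectors and 3 for RAB5 partners, with 0 effectors and 0 RAB5 partners higher; fewer genes were counted. With overlapping genes left out, which removes all 4 lower RAB genes, 0 were lower at either limit, and the medians were 0.16 for secretory, -0.042 for endoplasmic reticulum and Golgi, 0.34 for exocytic, 0.026 for late endosome, 0.057 for other RAB genes and -0.41 for RAB5 partners, with 1 prenylation and GDI gene lower. With no minimum the exocytic median was 0.10. With pseudocounts of 0.1 and 0.01 alike, 2 RAB genes were at least 2-fold higher, the lower counts were 11 GEF genes, 5 GAP genes and 2 RAB7 partners, and the higher counts 2 GAP genes, 5 effectors, 2 RAB5 partners and 1 RAB7 partner. As TPM the medians were -0.30 for secretory RAB genes, -0.35 for GEF genes, -0.26 for effectors, -0.43 for RAB5 partners and -0.43 for RAB7 partners, with 12 GEF genes, 6 GAP genes and 2 RAB7 partners lower and 2 GAP genes higher. Rescaled with ribosomal protein, hemoglobin and mitochondrial genes left out of the total, 11 GEF genes, 6 GAP genes and 2 RAB7 partners were lower, 2 GAP genes were higher, and the RAB5 partner median was -0.41. Centred on the median, 2 GAP genes were higher and 5 effectors lower. The shares of all genes at least 1.5-fold lower and higher moved too. They were 17.5% and 14.1% with a pseudocount of 0.1, and 18.0% and 14.5% with 0.01. As TPM they were 19.97% and 10.5%, and without the 3 gene families 19.2% and 11.5%. Trend removal gave 12.2% and 8.69%, and a minimum of 5 FPKM 15.8% and 12.5%. Centring gave 11.6% and 12.3%, and leaving out overlapping genes 13.8% and 11.3%. The all-gene median was -0.13 as TPM and -0.11 without the 3 families. The cause of these shifts was not tested unless stated.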
